A study of Mus musculus with 24 samples.

Results

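The miR-99/100 and miR-125 families were described in mouse lung by 5 of the 611 mouse miRNAs on the array: mmu-miR-99a, mmu-miR-99b, mmu-miR-100, mmu-miR-125a-5p and mmu-miR-125b-5p, written below without the species prefix. The rule takes them by name, as the main arms of their hairpins, and uses no measured value. Total RNA (100 ng) labelled with Cy3 was hybridised to 1-colour Agilent mouse miRNA arrays, with 1 animal and 1 array per sample. There were 4 groups of 6 arrays, namely wild type males (M WT), wild type females (F WT), SP-C/c-raf transgenic males (M c-Raf) and SP-C/c-raf transgenic females (F c-Raf), all 4 to 6 months old. c-Raf is a kinase of the MAP kinase cascade, and the transgene codes for the truncated, constantly active form c-Raf-1-BxB under the surfactant protein C promoter, which is active in alveolar type II cells. Only these epithelial cells are meant to carry the active kinase, while the RNA came from dissected tissue that may hold other cell types too. Frozen sections were microdissected per the labels, which call the tissue of all 24 arrays lung adenocarcinoma, WT included. Which cells were cut from WT lungs is not given in the sources used here. In such tissue RNA, fewer cells of a type and less miRNA per cell cannot be told apart.

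A miRNA recognises its targets mainly through bases 2 to 8, the seed, so that miRNAs with the same seed are grouped into a family. The miR-99/100 family is best known for repressing the growth kinase mTOR, and the miR-125 family for repressing, among others, the receptor tyrosine kinases ERBB2 and ERBB3. Both families are made from shared gene clusters, each of which also holds a let-7 gene, and let-7 is known for repressing Ras genes, which act just upstream of c-Raf.

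The mature sequences show how close the members are. They are given 5′ to 3′ from RefSeq on GRCm38.p6, with the seed in capitals, and all 5 members were found there.
miR-99a: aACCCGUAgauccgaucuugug
miR-99b: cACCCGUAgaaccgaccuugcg
miR-100: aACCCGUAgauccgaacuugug
miR-125a-5p: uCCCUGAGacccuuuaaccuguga
miR-125b-5p: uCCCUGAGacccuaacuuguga

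The first 3 share the seed ACCCGUA, which 3 of the 1679 mature miRNAs in the RefSeq table carry. miR-99a and miR-100 differ by the single substitution U16A, counted from the 5′ end with the base of miR-99a first. miR-99b differs from miR-99a by A1C, U11A, U16C and U21C. The other two share the seed CCCUGAG, which 5 of the 1679 carry. miR-125a-5p has 24 bases and miR-125b-5p has 22, with their first 13 and their last 5 bases in common. A further miRNA with the second seed, miR-351, was on the array and was detected on 0 of the 24 arrays. How far the probe of a member also binds its near-identical relative was not tested.

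The mature miR-99a lies at chr16:77598940-77598961, 710 bases before that of Mirlet7c-1 and 47317 bases before that of Mir125b-2. The mature miR-100 lies at chr9:41531437-41531458, 50481 bases before that of Mir125b-1, so that miR-125b-5p has a gene in both of these clusters (chr9:41581940-41581961 and chr16:77646279-77646300). The third cluster is compact, with 150 bases between miR-99b (chr17:17830194-17830215) and let-7e and 429 bases between let-7e and miR-125a-5p (chr17:17830817-17830840). All these sequences lie on the plus strand. The array has 1 value for miR-125b-5p, which cannot be split between Mir125b-1 and Mir125b-2.

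The arrays differed in brightness, which is the 75th percentile of intensity over the spots of the 27 miRNAs detected on every array. It ran from 34.9 to 1212 units, and between 38 and 179 miRNAs were detected per array. All values below are log2 of intensity over the brightness of the array, so that 0 means a spot as bright as that percentile, and values below the floor of 0.01 were set to it (-6.64). Dim miRNAs are therefore compressed, and their order at the floor is not known. In M WT replicate 4, miR-99a and miR-100 were at the floor. Its brightness (52.8) was the lowest of the M WT group, while M c-Raf replicate 6 was dimmer still (34.9). Other miRNAs also stood off there, such as miR-200b (-5.62, M WT mean -3.32) and let-7b (4.14, M WT mean 3.37). The male differences that M WT replicate 4 moved are also given without it, a choice made after these values were seen. Of the 5 epithelial miRNAs, miR-200b and miR-200c were detected on all 24 arrays, miR-429 on 13, miR-200a on 11 and miR-141 on 1. The endothelial miR-126-3p was detected on 23 arrays and miR-126-5p on 0, and miR-143 and miR-145 of smooth muscle on 3 each. Of 6 miRNAs of liver, striated muscle and neurons, 4 were detected on none, miR-122 on 2 and the muscle miR-133a on 14.

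The miR-125 members were readily measured and the miR-99/100 members were dim. miR-125a-5p and miR-125b-5p were detected on all 24 arrays. miR-99a was detected on 20 arrays, miR-99b on 13 and miR-100 on 12. By group, miR-99a was detected on 4 of 6 M WT, 5 M c-Raf, 6 F WT and 5 F c-Raf arrays. For miR-99b these numbers were 2, 4, 3 and 4, and for miR-100 they were 2, 4, 3 and 3, in the same order of groups.

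Every member is read by 2 probes with 10 spots each, and these probes differ strongly. The log2 gap between the brighter and the dimmer probe had a median of 3.24 for miR-99a, 1.39 for miR-99b, 2.22 for miR-100, 3.98 for miR-125a-5p and 3.97 for miR-125b-5p. The median over 20 spots, which the study used, thus falls between the dimmest spots of the brighter probe and the brightest spots of the dimmer probe. The dimmer probe of miR-99a had no spot well above background on 21 arrays, and that of miR-100 on 22. The brighter probe had no such spot on 3 arrays for miR-99a and on 12 each for miR-99b and miR-100. Values of the brighter probe alone are therefore given beside the median over all spots, a choice made after these data were seen.

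**Figure D1:**
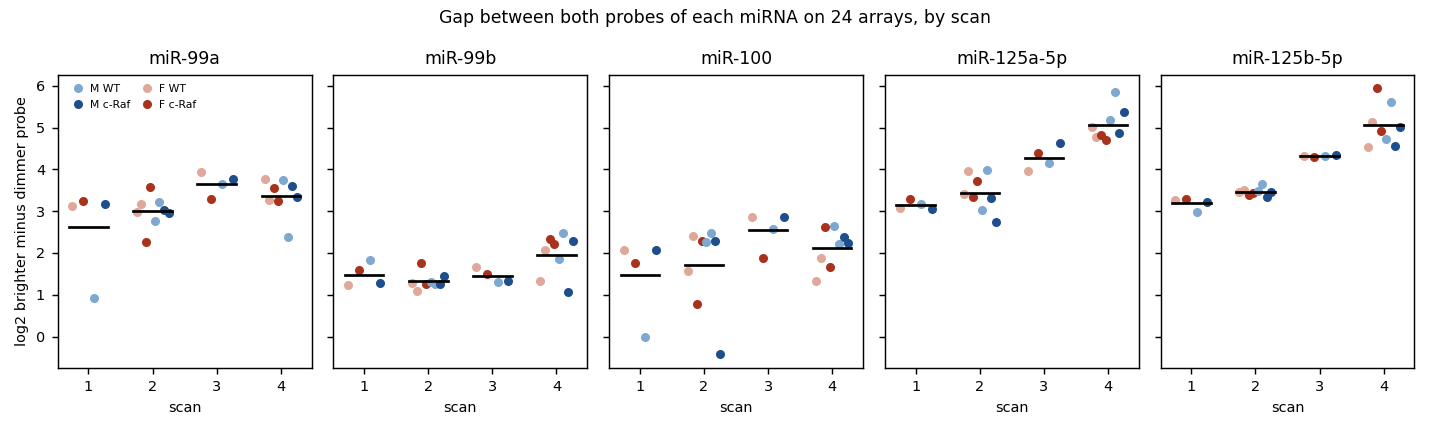
Log2 gap between the brighter and the dimmer probe (vertical axis) on each of the 24 arrays, by scan (horizontal axis, scan dates in order). Bars show the mean of a scan and colours the groups. For miR-125a-5p and miR-125b-5p the mean gap widened from 3.15 and 3.19 in scan 1 to 5.07 and 5.06 in scan 4.

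The gap of the miR-125 members differed between scans. Per the file headers the arrays were scanned on 4 dates, called scans 1 to 4 in order of date, each with arrays of every group. Scan 1 held slide 4 alone and scan 3 held slide 1 alone, while scans 2 and 4 held 2 slides each, so that scan and slide cannot be fully told apart. For miR-125b-5p the gap lay between 2.97 and 3.28 in scan 1, between 3.33 and 3.64 in scan 2, between 4.30 and 4.35 in scan 3 and between 4.53 and 5.95 in scan 4. These ranges did not overlap. For miR-125a-5p the means of scans 1 to 4 were 3.15, 3.43, 4.28 and 5.07. Here the ranges overlapped, with 3.06 to 3.29 in scan 1, 2.73 to 3.99 in scan 2 and 3.97 to 4.63 in scan 3. The means did not follow this order for miR-99a (2.62, 3.00, 3.66 and 3.36) or miR-99b (1.48, 1.33, 1.45 and 1.96). The dimmer probe was at the floor on 1 array for each of the miR-125 members, but on 14 arrays for miR-99a, 8 for miR-99b and 13 for miR-100, where the gap is only a lower bound.

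The slide accounted for more of the spread of the miR-125 members than the group did. All 4 groups had 1 array on each of the 6 slides, always at the same position, so that position and group cannot be told apart. Of the sum of squares over 24 arrays, 69.8% lay between slides for miR-125a-5p and 69.7% for miR-125b-5p, against 2.00% and 7.21% between groups. The same shares were 50.9% and 6.01% for miR-99b, 32.7% and 21.1% for miR-99a, and 25.2% and 5.76% for miR-100. The medians over the tested miRNAs were 31.9% between slides and 18.8% between groups, and miR-100 lay below both. With 6 slides but 4 groups, noise alone would give slides the larger share, so that a larger slide share alone shows no slide effect. For the brighter probe alone the share between slides was 80.8% for miR-125b-5p and 64.6% for miR-125a-5p. On slide 2, the 4 brighter-probe values of miR-125b-5p lay between -0.69 and -0.19, and on slide 4 between 0.51 and 0.86.

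Whether the transgene changed the members was asked in each sex. In limma fits over the 120 miRNAs detected on at least 6 arrays, all 5 members could be tested, and 0 of 5 were called at an adjusted p below 0.05 for M c-Raf against M WT, where 3 of 120 miRNAs were called (2.5%). For F c-Raf against F WT, 0 of 5 members were called beside 6 of 120 miRNAs (5%), and over both sexes 0 of 5 beside 22 of 120 (18.3%). At an unadjusted p below 0.05 there was 1 member in males and 0 in females or over both sexes, beside 25, 17 and 38 of the 120. The test of the study's methods, on the linear scale, called 0 members in males and in females, both after adjustment and at the study's thresholds. Those thresholds include a fold change above 3. Here and below that test used intensity over the brightness defined above, not the deposited values. In the deposited table the male log2 differences were larger, 1.65 for miR-99a and 1.75 for miR-100. There limma called 0 miRNAs in males, and the study's thresholds were not tested. The brighter probe alone also called 0 of 5 members, beside 6 of 120 miRNAs (5%) for males, 8 (6.67%) for females and 25 (20.8%) with the sexes together. The fit with the slide as a block called 0 of 5 too, beside 3 (2.5%), 10 (8.33%) and 28 (23.3%). The median log2 difference of the members was 0.19 in males and -0.11 in females, where the medians over the 120 miRNAs were 0.13 and 0.03. Without M WT replicate 4 the male medians were 0.08 for the members and 0.06 for all, and 1 miRNA was called in males in place of 3. A difference of the size of its SE would not be called for any member, so small changes are left undecided. About every other array did not detect miR-99b and miR-100.

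**Figure D2:**
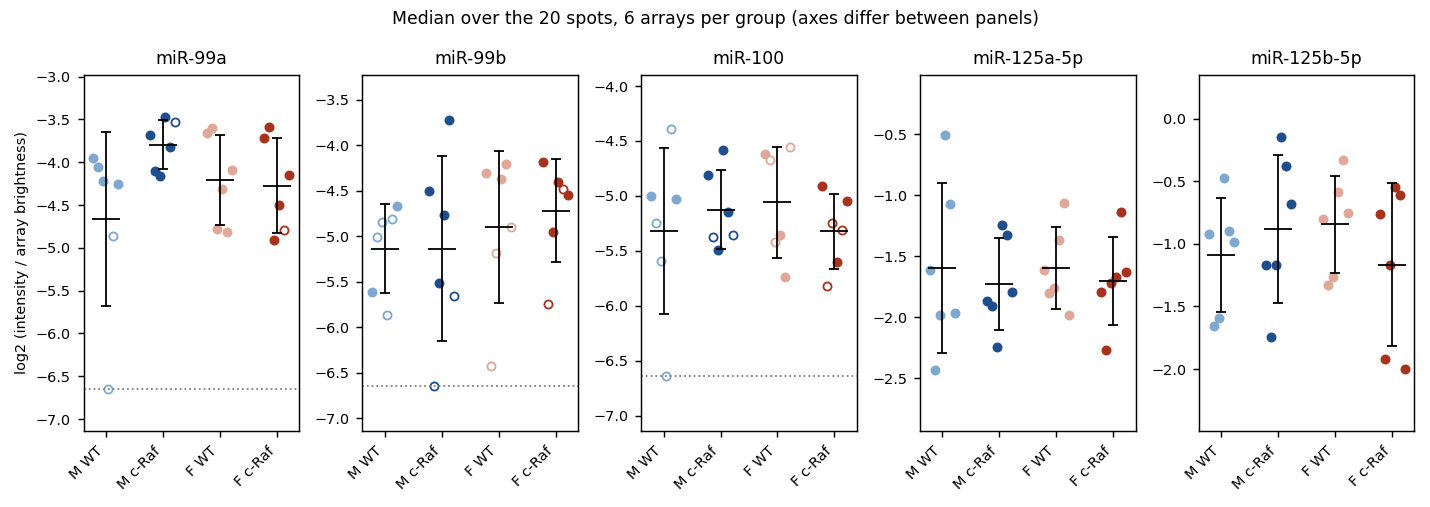
Log2 intensity over array brightness (vertical axis, scaled separately for each miRNA) of the 5 members in the 4 groups. Filled points are arrays on which the miRNA was detected, open points arrays on which it was not, bars show mean ± SD of 6 arrays, and the dotted line is the floor. The groups overlap for every member, and the lowest M WT point of miR-99a and of miR-100 is replicate 4, at the floor.

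miR-99a, encoded beside let-7c on chromosome 16, was the member with the largest difference. In M WT its lowest, median and highest values were -6.64, -4.23 and -3.95. In M c-Raf they were -4.16, -3.75 and -3.48, higher in the middle but overlapping with M WT. In F WT the values were -4.81, -4.20 and -3.60, and in F c-Raf -4.91, -4.32 and -3.58, nearly the same range. By group mean the order was M c-Raf (-3.79 ± 0.29, SD, n = 6), F WT (-4.21 ± 0.53), F c-Raf (-4.27 ± 0.55) and M WT (-4.66 ± 1.02), and neighbours in this order differed by less than the larger of their SDs.

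The male difference in miR-99a was 0.87 (SE 0.37, 95% confidence interval 0.11 to 1.63, limma, adjusted p = 0.186), and M c-Raf was higher on 5 of 6 slides. The female difference was -0.07 (SE 0.37, interval -0.83 to 0.70, adjusted p = 0.964). Slide 4, which holds M WT replicate 4, gave 3.17 in males, and the other slides lay between -0.04 and 1.04. Without M WT replicate 4 the male difference was 0.47, and the other arrays left out in turn moved it to at most 1.01. By scan the male difference was 3.17, 0.88, 0.27 and 0.01 in scans 1 to 4. With normexp background correction its sign turned (-0.57), as did the median over all tested miRNAs (-0.79), while relative to that median miR-99a was higher in M c-Raf under the 5 scalings and backgrounds run, by 0.22 (normexp), 0.52 (no scaling), 0.62 (percentile over all spots), 0.74 (as above) and 0.81 (quantile).

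The brighter probe of miR-99a gave a like picture. Its lowest, median and highest values were -5.72, -3.44 and -2.89 in M WT and -3.05, -2.87 and -2.37 in M c-Raf, and still overlapped. The male difference was 0.92 (SE 0.34, adjusted p = 0.0933), and 0.52 without M WT replicate 4. Over both sexes it was 0.52 (SE 0.24, interval 0.02 to 1.02, adjusted p = 0.128), and 0.32 without that array, with an interval from -0.0018 to 0.64. With the slide as a block in the fit the male difference had an SE of 0.31 and an adjusted p of 0.0523, the smallest of any member under the 45 settings run for males. The miR-99a difference between the sexes in their response (0.93, SE 0.52, adjusted p = 0.872) was not called, and was 0.54 without M WT replicate 4.

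miR-100, the single-base relative of miR-99a, was not called in either sex. In M WT its lowest, median and highest values were -6.64, -5.14 and -4.40, and in M c-Raf -5.49, -5.25 and -4.58. In F WT they were -5.73, -5.01 and -4.55, and in F c-Raf -5.82, -5.28 and -4.91. The values overlapped in both sexes, and 12 of the 24 arrays did not detect it. The male difference was 0.19 (SE 0.30, interval -0.42 to 0.80), and turned to -0.07 without M WT replicate 4. It moved with the scaling, to 1.76 with the percentile over all spots, 1.26 with no scaling and -0.79 with normexp. Relative to the median over all tested miRNAs it was 0.064 as above, and 0.75, 0.069 and -0.0013 with these. The female difference was -0.27 (SE 0.30, interval -0.88 to 0.35).

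miR-99b, of the compact cluster on chromosome 17, was not called in either sex. In M WT its lowest, median and highest values were -5.86, -4.93 and -4.67, and in M c-Raf -6.64, -5.14 and -3.72. In F WT they were -6.43, -4.64 and -4.21, and in F c-Raf -5.74, -4.52 and -4.18. M c-Raf spanned the whole range of the other groups. The difference was 0.00 in males (SE 0.42, interval -0.88 to 0.88), -0.14 without M WT replicate 4, and 0.18 in females (SE 0.42, interval -0.70 to 1.06). By slide the male difference ran from -1.63 to 1.11, higher in M c-Raf on 3 slides and lower on 3.

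miR-125a-5p, the neighbour of miR-99b, was not called in either sex. In M WT its lowest, median and highest values were -2.44, -1.79 and -0.51, and in M c-Raf -2.24, -1.83 and -1.24. In F WT they were -1.98, -1.68 and -1.06, and in F c-Raf -2.27, -1.70 and -1.14. The 4 medians lay close together, and the highest value, in M WT, belonged to replicate 4. The difference was -0.13 in males (SE 0.27, interval -0.69 to 0.42), turned to 0.08 without M WT replicate 4, and was -0.11 in females (SE 0.27, interval -0.66 to 0.45). In the brighter probe it was lower in c-Raf on 5 of 6 slides in males and on 5 of 6 in females, by -0.24 and -0.13 (adjusted p = 0.482 and 0.925), but the male value was -0.05 without M WT replicate 4.

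miR-125b-5p, with its 2 genes, was not called in either sex. In M WT its lowest, median and highest values were -1.66, -0.95 and -0.47, and in M c-Raf -1.74, -0.93 and -0.15. In F WT they were -1.33, -0.78 and -0.33, and in F c-Raf -1.998, -0.96 and -0.55. All groups overlapped. The difference was 0.21 in males (SE 0.30, interval -0.42 to 0.83), 0.33 without M WT replicate 4, and -0.32 in females (SE 0.30, interval -0.95 to 0.30). The female difference shrank to -0.04 with the brighter probe, and slide 6 alone gave -1.25 in the median over spots against 0.05 in the brighter probe.

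**Figure D3:**
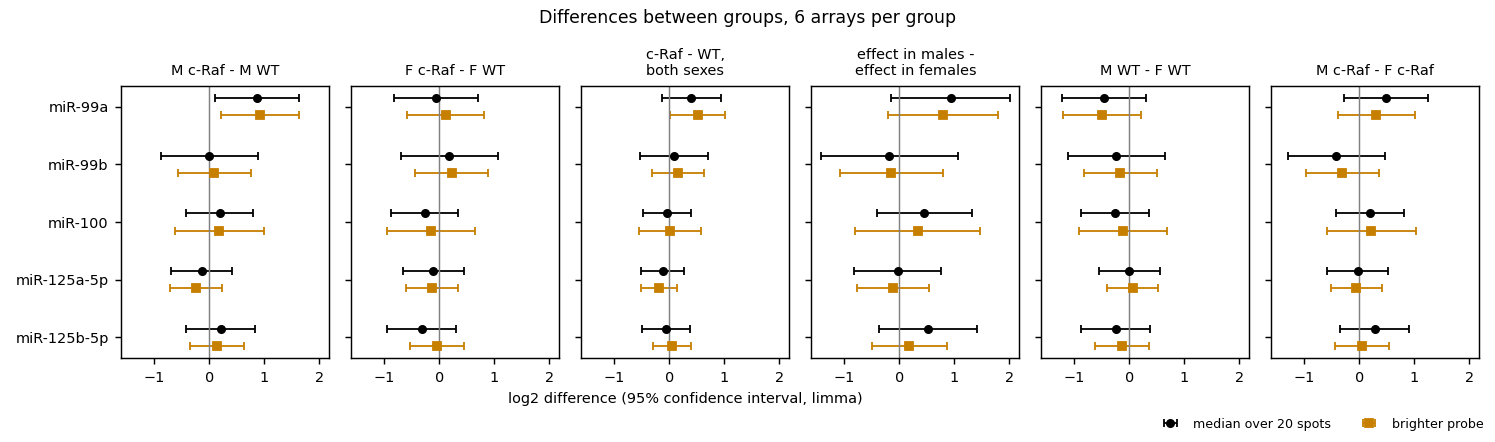
Log2 differences (horizontal axis) of the 5 members in the 6 comparisons, from the median over 20 spots (black circles) and from the brighter probe (orange squares), with 95% confidence intervals from limma. Apart from miR-99a in males, and over both sexes with the brighter probe, all intervals include 0.

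Males and females were also compared within a genotype. For M WT against F WT, 0 of 5 members and 0 of 120 miRNAs (0%) were called, and for M c-Raf against F c-Raf 0 of 5 members and 3 of 120 (2.5%). At an unadjusted p below 0.05 the members numbered 0 in both, beside 11 and 10 of the 120, and the methods' t-test called 0 members. The largest member difference was -0.46 for miR-99a in WT (SE 0.37), which was -0.06 without M WT replicate 4, and 0.48 for miR-99a in c-Raf (SE 0.37). The c-Raf effect in males minus that in females was called for 0 members and 0 of 120 miRNAs (0%), with 0 and 5 at an unadjusted p below 0.05. It ran from -0.18 for miR-99b to 0.93 for miR-99a, and without M WT replicate 4 from -0.32 for miR-99b to 0.65 for miR-125b-5p.

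A common factor for an array cancels in a ratio of its miRNAs, except where a value was set to the floor, so 5 pairs of members were compared in both sexes by exact permutation tests over 924 divisions, with adjustment over the 10 comparisons. Only the change of a ratio between groups is read here, since levels of different probes cannot be compared. With the median over 20 spots, 0 of 10 were called, and 1 had an unadjusted p below 0.05. This was miR-99a over miR-100 in males, where the log2 ratio was 0.65 ± 0.73 (SD, n = 6) for M WT and 1.33 ± 0.26 for M c-Raf (difference 0.68, exact permutation p = 0.0498, adjusted p = 0.498). In M WT replicate 4 both miRNAs were at the floor, which sets its log2 ratio to 0. In the deposited table, whose scaling puts the floor at another intensity, the difference was -0.10. With the percentile over all spots the male difference was 1.62 for miR-99a and 1.76 for miR-100. Ratios between neighbours of a cluster were not called. miR-99b over miR-125a-5p differed by 0.13 in males and 0.29 in females, miR-99a over miR-125b-5p by 0.66 and 0.26, and miR-100 over miR-125b-5p by -0.01 and 0.06, with adjusted p of 0.897 or more. Without M WT replicate 4 these 3 male differences were -0.23, 0.14 and -0.40. miR-125a-5p over miR-125b-5p differed by -0.34 in males (adjusted p = 0.660) and 0.21 in females (adjusted p = 0.897).

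With the brighter probes, miR-99a over miR-100 was higher in c-Raf on every slide in both sexes, but many of these ratios rest on spots not above background. The brighter probe of miR-100 had no spot well above background on 4 of 6 M WT, 2 M c-Raf, 3 F WT and 3 F c-Raf arrays, and that of miR-99a on 2 M WT and 1 F WT arrays. On 1 male slide, slide 1, both probes had such spots on both arrays, and there the difference was 0.01. On the female slides where this held, 1 and 4, it was 0.46 and 0.28. With all arrays taken as they are, the lowest, median and highest log2 ratios were 0.11, 0.83 and 1.11 in M WT, and in M c-Raf they were 1.09, 1.38 and 2.55. The male groups thus overlapped only at their edges, and the difference was 0.73 (exact permutation p = 0.00433, adjusted p = 0.0433 over 10 comparisons). In F WT the ratios were 0.78, 1.25 and 1.40, and in F c-Raf 1.29, 1.41 and 1.54. The female difference was 0.27 and was not called (exact permutation p = 0.0195, adjusted p = 0.0974). Whether the male and female differences differ was not tested.

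The call also rests on single arrays. The male highest value, 2.55, came from M c-Raf replicate 6, the array with the lowest brightness, on which neither miRNA was detected. Without it the male difference was 0.52 (exact permutation p = 0.0108, adjusted p = 0.0974). Leaving out 1 male array in turn kept the difference between 0.52 and 0.82, with an adjusted p from 0.0216 to 0.0974, above 0.05 without M c-Raf replicate 6 or without M WT replicate 1, 3, 4, 5 or 6. In females it stayed between 0.19 and 0.32, and was called (adjusted p = 0.0216) without F WT replicate 5. In M WT replicate 4 the brighter probe of miR-100 was at the floor, so that its ratio is a lower bound. By scan the male difference was 0.41, 1.56, 0.01 and 0.42 in scans 1 to 4, and the female one 0.28, 0.32, 0.46 and 0.11. The other ratios of brighter probes were not called (adjusted p of 0.289 or more).

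**Figure D4:**
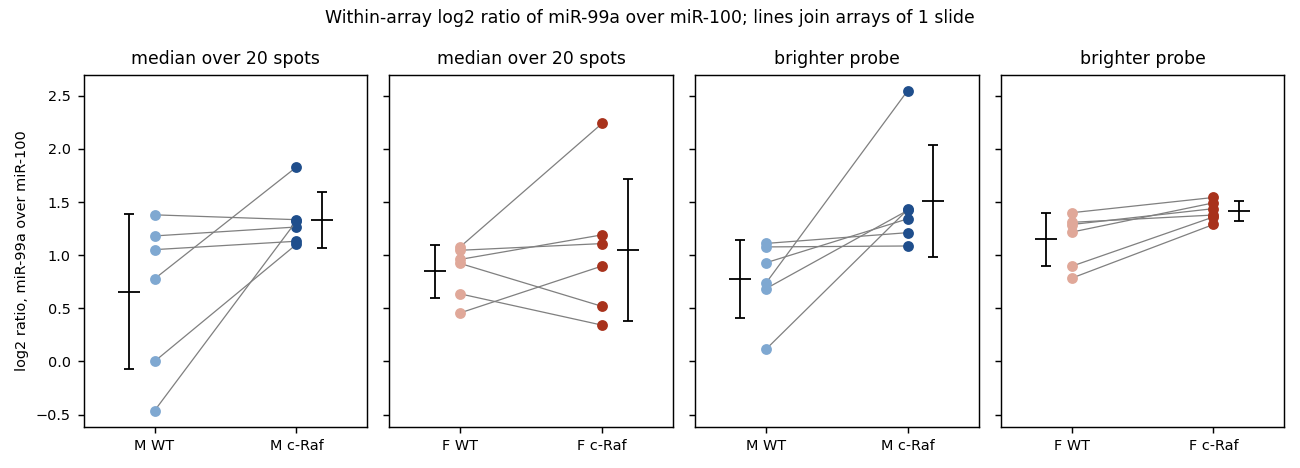
Log2 ratio of miR-99a over miR-100 within an array (vertical axis) in WT and c-Raf arrays of each sex, from the median over 20 spots (left pair of panels) and from the brighter probes (right pair). Grey lines join the arrays of a slide and bars show mean ± SD of 6 arrays. With the brighter probes all 12 lines rise from WT to c-Raf, although 1 male line is close to flat (0.01), that of the only male slide with spots above background for both miRNAs on both arrays.

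Members of a family did not all vary together over the 24 arrays, which share the scaling of each array and are described here without a test. Pearson r of the log2 values was 0.66 for miR-125a-5p with miR-125b-5p and 0.60 for miR-99a with miR-100, but 0.06 for miR-99a with miR-99b. The pair miR-99b and miR-125a-5p, 601 bases apart, had r = 0.22, the pair miR-99a and miR-125b-5p had r = -0.20, and the pair miR-100 and miR-125b-5p had r = 0.04. miR-99b and miR-100 were not detected on 11 and 12 of the 24 arrays, and the part of background in their r was not tested. miR-99a and miR-125a-5p ran against each other (r = -0.61). With the brighter probes the r of miR-99a with miR-100 was 0.78 and fell to 0.48 without M WT replicate 4, and that of miR-99a with miR-125a-5p was -0.74 and became -0.50.

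The 3 miRNAs most like each member were taken from the 119 others tested. Over the 24 arrays miR-99a was most like miR-24 (r = 0.82), miR-27a (0.79) and miR-107 (0.76). miR-100 was most like miR-10a (0.77), miR-25 (0.74) and miR-27a (0.63). For miR-99b the closest were miR-103, miR-30c and miR-26a, each with an r of 0.50. The miR-125 members were each most like the other (0.66). Next came miR-92a (0.64) and miR-328 (0.60) for miR-125a-5p, and miR-30c (0.61) and miR-30b (0.59) for miR-125b-5p. These lists did not all hold with the brighter probes. There miR-125a-5p was still the closest to miR-125b-5p (r = 0.67), but other miRNAs were closer to miR-125a-5p than miR-125b-5p was. None of the 3 miRNAs named for miR-99a or for miR-100 stayed among the closest 3.

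The let-7 miRNAs of the same clusters were not called either. let-7c, let-7a and let-7e were detected on all 24 arrays, and limma called 0 of 3 in either sex and 0 of 3 in both together. Over both sexes let-7c differed by -0.33 (SE 0.14, adjusted p = 0.102), let-7a by 0.19 (SE 0.12, adjusted p = 0.301) and let-7e by -0.07 (SE 0.10, adjusted p = 0.663). Both let-7c and let-7a have genes outside these clusters as well. Of the 6 other let-7 miRNAs, 1 rose over both sexes, a share near that of all tested miRNAs. This was let-7g (0.59, SE 0.20, limma, adjusted p = 0.0440), which was not detected in M WT replicate 4. The brighter probe did not call let-7g (adjusted p = 0.0652) and called let-7b lower (-0.42, adjusted p = 0.0159). The other arms of the member hairpins gave nearly no signal. Of the 4 on the array, miR-99b*, miR-125b-3p and miR-125b* were detected on 0 of 24 arrays and miR-125a-3p on 1, so that 0 of 4 were tested.

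Markers of several cell types were called over both sexes, where 22 of all 120 tested miRNAs were called (18.3%). Of 5 epithelial miRNAs 4 were tested and 3 rose, namely miR-200a by 0.73, miR-200b by 0.75 and miR-429 by 0.73 (adjusted p = 0.0217, 0.0482 and 0.0180). The fourth, miR-200c, differed by 0.23. The endothelial miR-126-3p rose by 0.75 (adjusted p = 0.0217). Of the leukocyte miRNAs 0 of 3 tested were called, although the brighter probe called miR-223 (0.89, adjusted p = 0.00500). Of red blood cells, miR-486 fell by 1.10 (adjusted p = 0.00213) while miR-451 differed by 0.38, and of mesenchyme, miR-214 fell by 0.86 (adjusted p = 0.000153) while miR-199a-3p differed by 0.21. Of these 6 and let-7g, the scaling alternatives called miR-200a, miR-486 and miR-214 with quantile normalization and 0 with the percentile over all spots, no scaling or normexp, and the sign turned only for miR-200a with normexp (-0.03). All 7 were still called without M WT replicate 4, where miR-200a and miR-429 were at the floor and miR-126-3p was not detected. The summed level of the 5 epithelial miRNAs lay between -0.71 and 0.47 in M WT and between -0.58 and 0.98 in M c-Raf. It lay between -0.27 and 0.69 in F WT and between 0.17 and 0.90 in F c-Raf. This sum adds different probes and is led by miR-200c, which was not called (M WT mean -0.44, against -3.32 for miR-200b). The part of these markers in the miR-99a values was not tested.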

How the data were processed

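The authors deposited scanner files with the intensity of each spot, extracted with Agilent Feature Extraction (8.1.3 in the submitters' processing notes, 10.7.3.1 in the file headers), and a table of processed intensity values, which lay within 1% of each miRNA's median spot intensity times 1 factor per array, for every value on 22 arrays and 99.6% of values on 2 (0 columns were left unmatched). That table is on a linear scale and is not centred. Here each spot was divided by the brightness of its array, floored at 0.01, and the log2 of the median over 20 spots was taken from the deposited intensity. No spot was saturated. A miRNA was detected where the extraction software said so, and 120 of the 611 mouse miRNAs, detected on at least 6 of 24 arrays, were tested. limma 3.58.1 in R 4.3.3 fitted 1 mean per group over 24 arrays (two-sided, Benjamini-Hochberg over 120 miRNAs, called below 0.05). Ratios were compared by two-sided exact permutation tests. The fit was tested on simulated data with normal noise. It called 50% of the differences of 1 log2 unit set in M c-Raf, and 89.75% of those of 2 log2 units. Smaller differences were not simulated.

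Members and lists were chosen with earlier results of these data known. Named were the 5 members, the 3 tested miRNAs most like each by Pearson r, the let-7 family, the other arms and the cell type markers. Replicates are different animals, and the arrays' number limits the precision. On all 24 arrays the replicate number equals the slide, and slide and scan were tried as blocks. Other alternatives were other scalings, normexp with an offset of 50 (on the median spot signal, since the files hold no mean signal), other floors, filters and summaries of the spots, the deposited table, the methods' t-test (unequal variances, linear scale) and leaving out each array. The array design names mouse build NCBI37, while the sequences and positions are RefSeq's on GRCm38.p6.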

Additional observations from a re-analysis of the deposited data

Results flagged for a closer look

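A single value stood far from the other arrays of its group: miR-99a in M WT replicate 4, at the floor (-6.64), while the nearest other M WT array was at -4.86. The gap was 0.662 of the range of the group. Chance gives such a gap in about 5% of groups, or 1 of the 20 groups of members examined, and 1 was found. miR-100 was at the floor on the same array too, whereas miR-125a-5p was at its highest M WT value there (-0.51). The brightness of this array was 52.8 units. The part of brightness in this value was not tested.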

How the results depend on the processing

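The members called numbered 0 in each of the 6 comparisons under every setting run, and the lowest adjusted p of a member was 0.0523 in males, 0.314 in females, 0.0754 over both sexes, 0.0900 in the male minus female effect, 0.371 between the sexes in WT and 0.116 between the sexes in c-Raf. The brighter probe, the dimmer probe and the removal of outlier spots (103 of 2400 member spots) were chosen after seeing the data. The methods' t-test was not run over both sexes or for the male minus female effect. Scaling set the signs of small differences: the median over all tested miRNAs in males was 0.13, but 1.01 with the percentile over every spot but controls, 0.23 with quantile normalization, 1.19 with no scaling, -0.79 with normexp and 1.02 in the deposited table (109 miRNAs tested). Arrays sharing a replicate number share a slide but did not all deviate together (correlations of -0.35 to 0.70 over the tested miRNAs). Such correlations cannot show whether animals with the same number were paired. With the replicate block, 3 miRNAs were called in males, 10 in females, 28 over both sexes and 4 between the sexes in c-Raf, 0 of them members. The lowest member adjusted p of that fit in males was 0.102, for miR-99a. The cause of the changes between settings was not tested. Signal over background limits miR-99b and miR-100, not detected on 11 and 12 arrays.

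The number of miRNAs called was 1 in males, 0 in females, 3 over both sexes and 0 between the sexes in c-Raf with the percentile over every spot but controls, and 0 in males, 10 over both sexes and 1 between the sexes in c-Raf with quantile normalization. It was 0 in males, 0 in females, 1 over both sexes and 0 between the sexes in c-Raf with no scaling between arrays, and 0 in males, 0 in females, 0 over both sexes and 0 between the sexes in c-Raf with normexp background. There were 6 in males with the mean over the probes, and 0 in males, 0 in females, 0 over both sexes and 0 between the sexes in c-Raf with the deposited table. Calls numbered 5 in males, 10 over both sexes and 1 between the sexes in c-Raf with a floor of 0.001, and 1 in males, 2 in females, 7 over both sexes and 1 between the sexes in c-Raf with no filter. The number of miRNAs called was 7 in males with the scan as a block, and 1 in males and 3 in females with only the arrays of the groups compared. It was 6 in males with the brighter probe alone, and 17 in males, 11 in females, 36 over both sexes and 5 between the sexes in c-Raf with the brighter probe and the replicate block. There were 0 in males, 0 in females and 0 between the sexes in c-Raf with the methods' t-test after adjustment, and 0 in males and 2 in females with the methods' t-test at the thresholds of the study. Calls numbered 1 in females, 9 over both sexes and 1 between the sexes in c-Raf with a floor of 0.1, and 2 in females and 1 between the sexes in c-Raf with detection on at least 12 arrays required. The number of miRNAs called was 10 in females with the replicate block (slide), and 1 in females, 4 over both sexes and 1 between the sexes in c-Raf with the dimmer probe alone. It was 3 in females with outlier spots left out, and 10 in females with the brighter probe and M WT replicate 4 left out.

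With the percentile over every spot but controls, the sign turned for miR-125a-5p (0.56) in males, for miR-99a (0.046) and miR-125a-5p (0.0092) in females, for miR-100 (0.81), miR-125a-5p (0.29) and miR-125b-5p (0.35) over both sexes, for miR-99b (0.027) and miR-125a-5p (0.55) in the male minus female effect, for miR-125a-5p (0.079) between the sexes in c-Raf. With no scaling between arrays, the sign turned for miR-125a-5p (1.04) in males, for miR-99b (-0.080) in females, for miR-100 (0.39), miR-125a-5p (0.36) and miR-125b-5p (0.42) over both sexes, for miR-99b (1.34) and miR-125a-5p (1.38) in the male minus female effect, for miR-99b (0.57) and miR-125a-5p (0.67) between the sexes in c-Raf. With normexp background, the sign turned for miR-99a (-0.57) and miR-100 (-0.79) in males, for miR-99a (0.61), miR-100 (0.64), miR-125a-5p (0.18) and miR-125b-5p (0.039) in females, for miR-99b (-0.062) and miR-125b-5p (0.048) over both sexes, for miR-99a (-1.18) and miR-100 (-1.43) in the male minus female effect, for miR-99a (0.43), miR-99b (0.42) and miR-100 (0.51) between the sexes in WT, for miR-99a (-0.75), miR-100 (-0.93) and miR-125b-5p (-0.066) between the sexes in c-Raf. With the deposited table, the sign turned for miR-125a-5p (0.59) in males, for miR-100 (0.77), miR-125a-5p (0.27) and miR-125b-5p (0.33) over both sexes, for miR-99b (0.041) and miR-125a-5p (0.64) in the male minus female effect, for miR-125a-5p (0.16) between the sexes in c-Raf. With outlier spots left out, the sign turned for miR-125a-5p (0.26) in males, for miR-99b (-0.026), miR-100 (0.085) and miR-125b-5p (0.10) over both sexes, for miR-125a-5p (0.63) in the male minus female effect, for miR-99a (-0.47) between the sexes in c-Raf. Taking the brighter probe with M WT replicate 4 left out, the sign turned for miR-100 (-0.24) in males, for miR-99a (0.12) in females, for miR-125b-5p (0.085) over both sexes, for miR-100 (-0.090) and miR-125a-5p (0.077) in the male minus female effect, for miR-100 (0.31) between the sexes in WT. With the mean over the probes, the sign turned for miR-99a (0.14) in females, for miR-100 (0.065) and miR-125b-5p (0.047) over both sexes. With a floor of 0.1, the sign turned for miR-99a (0.015) in females. With the brighter probe alone, the sign turned for miR-99a (0.12) in females, for miR-100 (0.017) and miR-125b-5p (0.047) over both sexes. With the dimmer probe alone, the sign turned for miR-99a (0.30), miR-99b (-0.10) and miR-100 (0.040) in females, for miR-100 (0.18) and miR-125b-5p (0.028) over both sexes, for miR-99b (0.42) and miR-125a-5p (0.13) in the male minus female effect, for miR-99a (0.10) between the sexes in WT, for miR-99b (0.019) between the sexes in c-Raf. Taking the brighter probe with outlier spots left out, the sign turned for miR-99a (0.11) in females, for miR-100 (0.025) and miR-125b-5p (0.042) over both sexes. Taking the brighter probe with the replicate block, the sign turned for miR-99a (0.12) in females, for miR-100 (0.017) and miR-125b-5p (0.047) over both sexes. With quantile normalization, the sign turned for miR-125b-5p (0.025) over both sexes. With a floor of 0.001, the sign turned for miR-99b (-0.077) and miR-100 (0.24) over both sexes.

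With normexp background, the ratio turned to -0.47 for miR-99b over miR-125a-5p in males, -0.62 for miR-99a over miR-125b-5p in males and -0.026 for miR-99a over miR-100 in females. With the mean over the probes, the ratio turned to 0.092 for miR-100 over miR-125b-5p in males, -0.057 for miR-100 over miR-125b-5p in females and -0.083 for miR-125a-5p over miR-125b-5p in females, and was called for miR-99a over miR-100 in males at 0.59 (adjusted p = 0.0216). With the deposited table, the ratio turned to -0.31 for miR-99b over miR-125a-5p in males, 0.82 for miR-100 over miR-125b-5p in males and -0.10 for miR-99a over miR-100 in males. With the brighter probe alone, the ratio turned to 0.047 for miR-100 over miR-125b-5p in males, -0.11 for miR-100 over miR-125b-5p in females and -0.084 for miR-125a-5p over miR-125b-5p in females, and was called for miR-99a over miR-100 in males at 0.73 (adjusted p = 0.0433). With the brighter probe and outlier spots left out, the ratio turned to 0.041 for miR-100 over miR-125b-5p in males, -0.075 for miR-100 over miR-125b-5p in females and -0.086 for miR-125a-5p over miR-125b-5p in females, and was called for miR-99a over miR-100 in males at 0.74 (adjusted p = 0.0433).

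Leaving out 1 array in turn gave 1 to 7 miRNAs called in males, 2 to 8 in females, 14 to 24 over both sexes, 0 to 2 in the male minus female effect and 1 to 6 between the sexes in c-Raf. The miR-100 difference then ran from -0.073 to 0.38 in males, -0.17 to 0.056 over both sexes and -0.44 to 0.0053 between the sexes in WT. The miR-125a-5p difference then ran from -0.30 to 0.083 in males, -0.22 to 0.0063 in females, -0.20 to 0.19 in the male minus female effect and -0.14 to 0.088 between the sexes in c-Raf. The miR-99a difference then ran from -0.20 to 0.061 in females. The miR-99b difference then ran from -0.13 to 0.38 in females, -0.063 to 0.24 over both sexes and -0.46 to 0.13 in the male minus female effect. The miR-125b-5p difference then ran from -0.13 to 0.028 over both sexes. Ratios ran from -0.23 to 0.40 for miR-99b over miR-125a-5p in males, -0.40 to 0.13 for miR-100 over miR-125b-5p in males, -0.032 to 0.48 for miR-99a over miR-125b-5p in females, -0.18 to 0.24 for miR-100 over miR-125b-5p in females and -0.038 to 0.34 for miR-99a over miR-100 in females.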
